A study of Mus musculus with 24 samples.

Results

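The genes described here are the nuclear genes that encode subunits of the mitochondrial respiratory chain and ATP synthase, with close isoforms that share their symbols. They were chosen by symbol alone, without any measured value: Nduf followed by a, b, c, s or v and a number, Cox4 to Cox8 followed by a, b or c, Uqcr, Sdha to Sdhd, Atp5, and Usmg5, leaving out 8 symbols ending in -ps. This gave 87 of 53465 gene rows, which were assigned by symbol, 40 to complex I, 4 to complex II, 8 to complex III, 17 to complex IV and 18 to complex V. Ndufa4, now known as a complex IV subunit, and its relative Ndufa4l2 are counted with complex I by their symbols. They lie on 19 chromosomes. Of the 87 genes, 9 had fewer than 50 counts over all 24 libraries (Cox6a2, Cox6b2, Cox6c2, Cox7b2, Cox8b, Cox8c, Ndufa11b, Ndufb4c and Ndufs6b), and the other 78 passed the filter on low counts in every fit. The 9 include the muscle isoforms Cox6a2 and Cox8b, the testis isoforms Cox6b2, Cox7b2 and Cox8c, and variant copies of complex I and complex IV genes.

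Complexes I and II pass electrons from NADH and succinate to ubiquinone, complex III passes them on to cytochrome c, and complex IV reduces oxygen. The proton gradient built by complexes I, III and IV drives ATP synthase, also called complex V. Complex II is encoded wholly in the nucleus, while the others join nuclear subunits with ones encoded in mitochondrial DNA. In many tissues the nuclear subunit genes are regulated together by the factors NRF1, GABP (an ETS factor) and YY1 and by co-activators of the PGC-1 family.

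The study treated a mouse tumour model of triple-negative breast cancer with 2 drugs and sequenced RNA before and after enrichment by J2, an antibody that binds RNA duplexes. The tumours were of the line 2153L, a p53-null mammary tumour from a genetically engineered mouse, grown as fragments in the cleared fat pads of female BALB/c mice aged 6 to 8 weeks at transplantation. Treatment began at about 100 mm3 with vehicle, with ORIN1001 (which blocks the RNase of IRE1α, an enzyme of the unfolded protein response; 150 mg/kg daily by gavage), with docetaxel (a taxane that stabilises microtubules; 10 mg/kg weekly into the peritoneum) or with both, called the combination here. Each of the 4 treatments had 3 biological replicates, and each replicate gave an input library and a J2 library, 24 libraries in 8 groups. All groups share the p53 knockout, and mice on 1 drug also received the vehicle of the other. The tumour is 1 transplant line, and the labels call the samples bulk tumour cells, so RNA of host stroma and leukocytes is included. Trp53 was counted at 20.9 to 53.7 CPM (read counts scaled for library size) in the inputs; which part of the gene is deleted is not given, so this level checks nothing. The labels do not say whether replicates came from separate mice, so p-values measure the spread between these samples. No library from a control antibody was analysed here, so a low J2 level cannot be told apart from low capture of RNA of any structure.

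Depth ran from 3273101 to 63267669 counts per input and from 2540271 to 18698556 counts per J2 library. The input of docetaxel replicate 3 stood apart, with the lowest total, 68.4% of it at ribosomal RNA genes against at most 3.56% in the other 11 inputs, and 3252 counts over the respiratory chain genes against up to 645651. It is given with and without below. Ribosomal RNA also took 38.1%, 57.7% and 23.0% of the combination J2 libraries, against 1.30% to 17.5% in the other J2 libraries. Epithelial markers summed to 1257 to 2295 CPM over the inputs, fibroblast markers to at most 594 CPM outside docetaxel 3 (2056 CPM there), adipocyte markers to at most 21.7 CPM outside docetaxel 3 (238 CPM there), and the markers of skeletal muscle and of brown fat, tissues rich in mitochondria, to at most 3.32 and 2.03 CPM.

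The respiratory chain genes took 0.914% to 0.995% of the counts of the vehicle inputs and 0.285% to 0.343% of the vehicle J2 libraries. The ORIN1001 inputs lay at 0.949% to 1.10% and the first 2 docetaxel inputs at 1.03% and 1.02%, with 0.0994% in docetaxel 3. The combination inputs lay at 0.765%, 0.455% and 0.712%, below every vehicle and ORIN1001 input. In a bulk sample, fewer cells with much of an RNA and less of it per cell cannot be told apart.

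**Figure D1:**
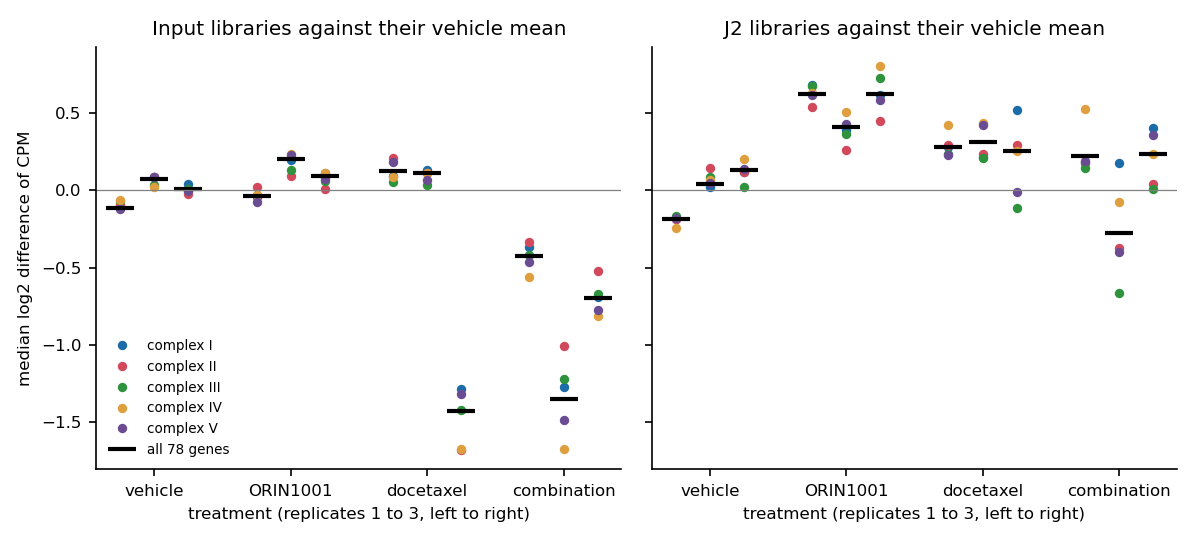
Median log2 difference in CPM from the mean of the vehicle libraries of the same kind, on the vertical axis, over all 78 genes and over the genes of each complex, for each of 12 input libraries (one panel) and 12 J2 libraries (the other). In the inputs the 3 combination libraries (−0.42, −1.35 and −0.70 over all 78 genes) and docetaxel 3 (−1.43) lie below the other 8, which run from −0.11 to 0.20; in the J2 libraries the 3 ORIN1001 libraries lie highest, from 0.41 to 0.62.

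In the combination inputs of that plot all 5 complexes were low together. In combination input 2, the lowest of the 3, the medians were −1.27 for complex I, −1.01 for complex II, −1.22 for complex III, −1.67 for complex IV and −1.48 for complex V. In combination input 1 they ran from −0.56 (complex IV) to −0.34 (complex II).

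The stretch of 250 bases before the RefSeq start was searched on both strands for core letters of the 3 factors named above. Whether these letters go with the level in input or in J2 was not tested. Windows were found for 69 of the 87 genes, 74 windows in all, in the RefSeq promoters of GRCm38.p6, the mm10 assembly. GCATGCG, a core of the NRF1 site, was in 9 windows (12.2%, against 3.02% of 32851 windows of all genes). CCGGAAG, a core of ETS sites, was in 12 (16.2% against 6.91%), AAGATGGC, a core of the YY1 site, was in 1 (1.351% against 1.565%), and at least 1 of the 3 was in 18 (24.3% against 10.8%). No 2 different motifs overlapped. A match is a description of the letters, not a site at which a factor was shown to bind. The 4 windows below belong to subunits of complexes II, III and IV whose J2 level is described further on. None of these 4 genes overlaps another RefSeq gene, while the windows themselves were not checked for overlap. They are written 5′ to 3′ on the gene's strand, with the matched letters of either strand in capitals. Sdhb (chr4:140961021-140961270, plus strand) holds the NRF1 letters, Cox6a1 (chr5:115348959-115349208, minus strand) the NRF1 and ETS letters, Cox6b1 (chr7:30626115-30626364, minus strand) and Uqcr11 (chr10:80406822-80407071, minus strand) the ETS letters.
Sdhb: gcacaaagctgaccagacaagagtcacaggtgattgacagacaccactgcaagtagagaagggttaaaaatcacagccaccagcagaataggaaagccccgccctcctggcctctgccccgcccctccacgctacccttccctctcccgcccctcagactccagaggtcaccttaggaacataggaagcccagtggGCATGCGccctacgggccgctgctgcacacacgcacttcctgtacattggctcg
Cox6a1: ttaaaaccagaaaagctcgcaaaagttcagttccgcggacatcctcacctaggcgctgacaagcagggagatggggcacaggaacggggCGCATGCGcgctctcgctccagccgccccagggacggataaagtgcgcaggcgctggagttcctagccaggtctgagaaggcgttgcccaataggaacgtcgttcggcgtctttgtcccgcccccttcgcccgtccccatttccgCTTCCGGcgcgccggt
Cox6b1: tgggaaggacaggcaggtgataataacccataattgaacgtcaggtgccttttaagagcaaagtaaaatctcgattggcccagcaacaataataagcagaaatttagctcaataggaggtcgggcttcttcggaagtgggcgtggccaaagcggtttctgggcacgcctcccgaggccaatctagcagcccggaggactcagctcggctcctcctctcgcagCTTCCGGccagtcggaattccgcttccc
Uqcr11: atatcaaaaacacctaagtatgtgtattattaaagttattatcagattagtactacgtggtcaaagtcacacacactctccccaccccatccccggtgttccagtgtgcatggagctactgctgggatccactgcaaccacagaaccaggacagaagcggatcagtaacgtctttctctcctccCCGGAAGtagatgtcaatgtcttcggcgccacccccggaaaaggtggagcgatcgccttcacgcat

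The first question was what either drug alone did to the respiratory chain genes in the input. With ORIN1001, 0 of 78 genes passed an adjusted p of 0.05 by edgeR's quasi-likelihood test, as did 0% of the 17768 genes tested (0 of 78 and 787 of all genes were at an unadjusted p under 0.05). DESeq2 and limma-voom also called 0. The median log2 fold change was 0.06, against −0.01 over all genes, with 58 values above 0 and 20 below. In 3 genes all ORIN1001 inputs lay above all vehicle inputs, 3.85% of the 78 against 7.06% of all genes. The smallest p-values belonged to Ndufa4l2, Cox7a1 and Ndufs1 (edgeR adjusted p = 1.00 for each). Ndufa4l2, a hypoxia-induced relative of Ndufa4, lay at 3.09, 2.21 and 6.45 CPM with ORIN1001 and 2.70, 1.12 and 0.623 CPM with vehicle (log2 fold change 1.37 ± 0.78, SE), so the groups overlapped. Cox7a1, the heart and muscle isoform of subunit VIIa, stood at 0.71 ± 0.56 and Ndufs1, the largest core subunit of complex I, at −0.22 ± 0.17.

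With docetaxel, edgeR also called 0 of 78 in the input, and 0% of all genes (1 of 78 and 1857 of all genes at an unadjusted p under 0.05). DESeq2 and limma-voom called 0. The median was −0.20 with docetaxel 3 in the fit and 0.07 without it. In 2 genes the docetaxel inputs all lay above the vehicle inputs (2.56%, against 7.02% of all genes). The smallest p-values belonged to Ndufs4 (1.16 ± 0.46), an accessory subunit of complex I, Ndufv1 (−0.67 ± 0.34), which binds NADH, and Atp5j (0.58 ± 0.33), coupling factor 6 of the ATP synthase stalk. Ndufs4 lay at 46.6 and 45.4 CPM in the first 2 docetaxel inputs and 196 CPM in docetaxel 3, against 36.9, 42.6 and 39.1 CPM with vehicle. Atp5j lay at 60.6, 55.1 and 151 CPM, against 55.6, 59.6 and 51.5 CPM, so that docetaxel 3 held the high value of both genes, while in the same library Atp5k and Ndufa1 were at 0 counts.

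With both drugs, the respiratory chain genes were lower in the input, across all 5 complexes. All 78 log2 fold changes against vehicle were below 0, with a median of −0.74 (all genes −0.03), and 35 were at an unadjusted p under 0.05. By edgeR 4 genes fell at an adjusted p of 0.05, 5.13% of the 78 against 1.98% of all genes, and none rose. In 68 of 78 genes every combination input lay below every vehicle input, 87.2% against 27.7% of all genes.

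The 4 genes that fell encode 3 subunits of complex I and 1 of the rotor of ATP synthase. Ndufc1 (chr3:51405479-51408955), an accessory subunit of the membrane arm, lay at 39.3, 47.6 and 43.8 CPM with vehicle and 24.1, 8.54 and 16.6 CPM with the combination. Its fall was 1.36 ± 0.31 on the log2 scale (edgeR adjusted p = 0.0403). Ndufs8 (chr19:3908863-3912774), a core subunit that carries iron-sulphur clusters, lay at 36.0, 42.0 and 40.3 CPM and 22.0, 8.04 and 17.0 CPM in the same order. It fell by 1.28 ± 0.31 (edgeR adjusted p = 0.0456). Ndufv3 (chr17:31520115-31531326), an accessory subunit of the NADH-binding module, fell by 1.17 ± 0.19 (edgeR adjusted p = 0.0312), from 54.2, 60.6 and 48.5 CPM to 28.8, 19.9 and 21.8 CPM. Atp5g1 (chr11:96072793-96075694) is 1 of 3 genes for the same c subunit of the rotor ring. It lay at 109, 119 and 129 CPM with vehicle and 64.5, 27.1 and 57.5 CPM with the combination, and fell by 1.22 ± 0.29 (edgeR adjusted p = 0.0454). In all 4 genes the groups did not overlap and combination 2 was the lowest library.

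**Figure D2:**
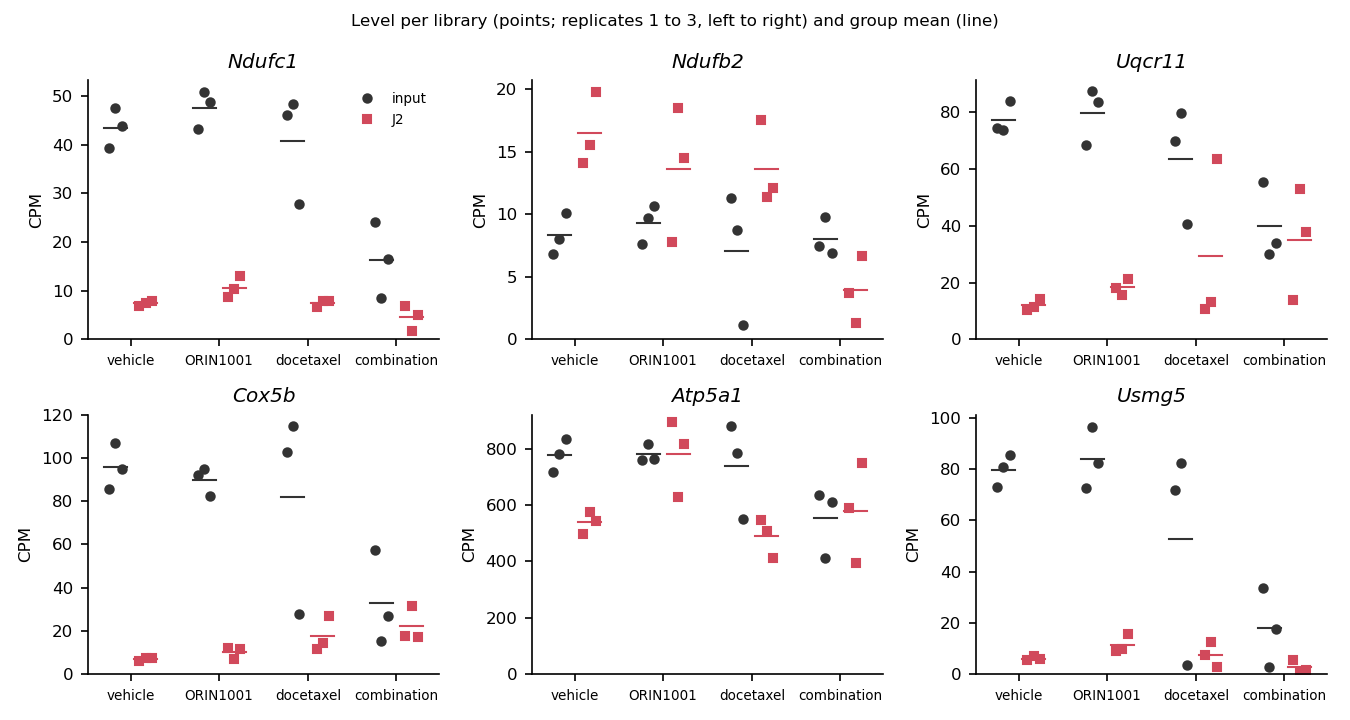
CPM on the vertical axis in each of the 24 libraries, grouped by treatment on the horizontal axis, for Ndufc1, Ndufb2, Uqcr11, Cox5b, Atp5a1 and Usmg5, with input and J2 libraries in separate colours each point 1 library and each line a group mean. Ndufc1 input falls from 39.3 to 47.6 CPM with vehicle to 8.54 to 24.1 CPM with the combination; Ndufb2 is the gene whose vehicle J2 libraries lie above the inputs.

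By median, core subunits of complexes I and III lay nearer to vehicle than the other subunits of those complexes, without a test between them. Not every core gene followed: Uqcrc2 of complex III stood at −1.13 and Ndufs8 of complex I at −1.28. The medians were −0.54 over the core subunits of complex I and −0.77 over its accessory subunits, −0.58 for complex II, −0.26 over the core and −0.92 over the small subunits of complex III, −0.87 for complex IV, −0.69 for the F1 head of ATP synthase, −0.78 for its stalk, −0.58 for the c ring and −1.04 for the other supernumerary subunits of complex V. Of the core subunits, Ndufs1 stood at −0.06 ± 0.17 and just above 0 under 4 alternatives, Uqcrc1, a core protein of complex III, at −0.21 ± 0.25, and Uqcrfs1, the Rieske iron-sulphur protein, at −0.26 ± 0.32. Sdha and Sdhb, the flavoprotein and iron-sulphur subunits of complex II, stood at −0.66 ± 0.24 and −0.88 ± 0.35. Cox5a and Cox6c of complex IV stood at −0.32 ± 0.19 and −0.45 ± 0.22. The F1 subunits Atp5a1 (alpha) and Atp5b (beta) stood at −0.45 ± 0.22 and −0.69 ± 0.37. None of these passed (edgeR adjusted p from 0.106 to 0.87). Ndufs1, at 89.0, 100 and 113 CPM with vehicle and 94.5, 95.2 and 92.9 CPM with the combination, overlapped between the groups.

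Isoforms of the same subunit are given side by side, without a test between them. Cox7a1 lay at 1.46, 1.02 and 2.38 CPM with vehicle and 0.550, 0 and 0.372 CPM with the combination (−2.31 ± 0.66, edgeR adjusted p = 0.0594), while its ubiquitous counterpart Cox7a2 stood at −1.26 ± 0.63 and Cox7a2l, a factor of supercomplex assembly, at −0.24 ± 0.14. Of the c subunit genes, Atp5g2 stood at −0.15 ± 0.21 and Atp5g3 at −0.58 ± 0.37, beside Atp5g1 above. Ndufa4 stood at −1.30 ± 0.67 and Ndufa4l2 at −0.02 ± 0.80. The single expressed isoforms Cox6a1, Cox6b1, Cox7b and Cox8a stood at −0.62 ± 0.44, −0.87 ± 0.33, −1.79 ± 0.57 and −1.25 ± 0.40 (edgeR adjusted p from 0.0762 to 0.382).

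Other mitochondrial genes are given beside these counts. Of 77 mitochondrial ribosomal protein genes tested, 3 fell and 0 rose (median −0.55), among them Mrpl21 by 1.68 ± 0.33 and Mrpl49 by 1.38 ± 0.31. Of assembly factors, 1 of 15 for complex I fell (Ndufaf3, by 1.02 ± 0.22), 0 of 10 for complexes II and III, 3 of 20 for complex IV (among them Coa6 by 1.14 ± 0.28 and Cmc1 by 0.84 ± 0.21) and 1 of 4 for ATP synthase (Fmc1, by 1.49 ± 0.29). None of the 6 nuclear subunits that the symbol rule leaves out, of the 13 tricarboxylic acid cycle genes, of the 12 regulators or of the 11 mRNAs of the mitochondrial genome passed by edgeR (2, 7, 1 and 1 at an unadjusted p under 0.05), with medians of −0.64, −0.47, −0.08 and −0.96. Outside the mitochondria, 10 of 85 cytosolic ribosomal protein genes fell and 0 rose (median −0.77). Leukocyte markers summed to 119 to 153 CPM in the combination inputs against 67.2 to 80.3 CPM with vehicle. Epithelial markers summed to 1257 to 1797 CPM against 1758 to 2288 CPM, with no marker of either list at 0. The markers within a list did not move together. Ptprc (93.7, 131 and 127 CPM against 44.8, 45.5 and 50.0 CPM) and Cd3e were higher. Cd68 was lower (12.1, 4.46 and 10.7 CPM against 17.4, 26.1 and 12.6 CPM), and Itgam overlapped. Epcam and Cdh1 were lower, and the keratins overlapped. Fibroblast markers summed to 173 to 415 CPM against 160 to 170 CPM with vehicle, with none at 0. Most of that sum was Col1a1 (122, 345 and 167 CPM against 107, 95.8 and 106 CPM). Pdgfra was lower (14.0, 9.86 and 10.2 CPM against 28.8, 36.1 and 17.4 CPM), and Col3a1 and Dcn overlapped. Brown fat markers summed to 0.251 to 0.495 CPM (Elovl3 at 0) against 1.22 to 1.77 CPM (Ucp1 at 0). The part of these cell types in the fall was not tested.

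The number of calls against vehicle rested on single libraries, and the direction did not. It was 0 without any 1 of vehicle 1, 2 and 3, ORIN1001 2, combination 2 and combination 3, 1 without ORIN1001 1 or 3, 2 without docetaxel 1, 13 without combination 1 and 53 without docetaxel 3 (28.0% of all genes called), while the median stayed between −0.93 and −0.49.

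By median, the combination was also lower than each drug alone, in comparisons that share the combination inputs with the one above. Docetaxel input 3 itself lay below all 3 combination inputs, with a median of −1.43 from the vehicle mean against −0.42, −1.35 and −0.70. Against docetaxel, 6 of 78 genes fell (7.69%, against 1.96% of all genes) and none rose, with a median of −0.62. They were Atp5j (−1.39 ± 0.34), Ndufb4 (−1.29 ± 0.35), Ndufc1 (−1.27 ± 0.31), Atp5e (−1.18 ± 0.32), which is the epsilon subunit of F1, Ndufv3 (−1.05 ± 0.19) and Ndufa10 (−0.87 ± 0.19), with edgeR adjusted p from 0.0205 to 0.0477. Atp5j lay at 38.8, 24.6 and 28.8 CPM with the combination, below docetaxel at 60.6, 55.1 and 151 CPM. In 12 genes every combination input lay below every docetaxel input (15.4%, against 12.9% of all genes). The count was 0 without docetaxel 1 or 2 or combination 2 or 3, 3 without vehicle 1 or 3 or ORIN1001 2 or 3, 10 without combination 1 and 54 without docetaxel 3.

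Against ORIN1001, 11 of 78 genes fell (14.1%, against 5.43% of all genes) and none rose, with a median of −0.77. Cox7a1 fell by 3.02 ± 0.66 (edgeR adjusted p = 0.0218), from 2.80, 3.03 and 2.31 CPM, and Cox7b, a small subunit of complex IV, by 1.96 ± 0.57 (edgeR adjusted p = 0.0454), from 94.2, 115 and 99.7 CPM to 43.7, 9.68 and 22.4 CPM. Next came Ndufc1 (−1.47 ± 0.31), Cox8a (−1.39 ± 0.40), Atp5g1 (−1.31 ± 0.30) and Ndufb4 (−1.31 ± 0.34), and the others were Atp5e, Ndufv3, Ndufs8, Uqcr11 and Ndufc2. In 71 genes every combination input lay below every ORIN1001 input (91.0%, against 31.7% of all genes). The count was 7 without any 1 vehicle input, 5, 1 and 0 without ORIN1001 1, 2 and 3, 61 without docetaxel 3, 0 without combination 2 and 1 without combination 3.

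The second question was how much of each RNA J2 bound relative to the input of the same tumour. Respiratory chain mRNAs were low in J2 RNA. Averaged over the 4 treatments, 73 of 78 genes were lower in J2 than in input, 93.6% against 30.0% of the 17338 genes tested, and none was higher, against 25.0% of all genes. The median log2 ratio of J2 to input was −1.14, against −0.05 over all genes. With a scaling by library totals, the medians were −1.39 and −0.32. J2 lay below input in all 12 tumours for 18 genes (23.1%, against 4.58% of all genes), and for 45 genes in the 11 tumours other than docetaxel 3 (57.7%, against 11.1%).

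**Figure D3:**
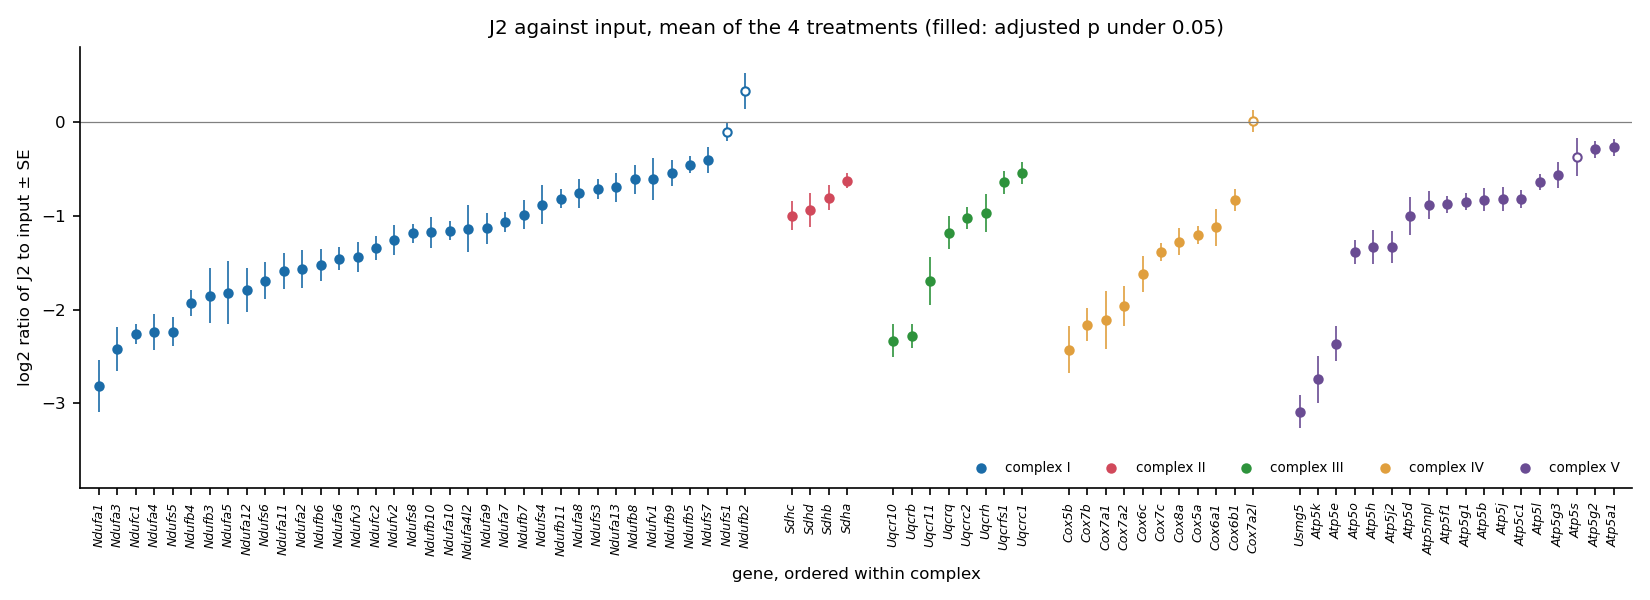
Log2 ratio of J2 to input, mean over 4 treatments with its SE as the error bar, for 77 of the 78 genes ordered within complexes I to V along the horizontal axis. Filled points passed an edgeR adjusted p of 0.05; all 73 filled points lie below 0, from Usmg5 at −3.09 to Atp5a1 at −0.27.

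The lowest ratios belonged to small subunits. Usmg5 (chr19:47083471-47090647, now Atp5md), a small membrane subunit of ATP synthase, lay at 73.1, 81.0 and 85.6 CPM in the vehicle inputs and 5.31, 6.82 and 5.77 CPM in the vehicle J2 libraries. Its mean ratio was −3.09 ± 0.18 (edgeR adjusted p = 7.02e-08). Next came Ndufa1, an accessory subunit of complex I (−2.82 ± 0.28), Atp5k, subunit e of ATP synthase (−2.75 ± 0.25), Cox5b of complex IV (−2.43 ± 0.25), Ndufa3 of complex I (−2.42 ± 0.23) and Atp5e (−2.36 ± 0.19). Cox5b (chr1:36691487-36693388) lay at 85.7, 107 and 95.1 CPM in the vehicle inputs and 5.88, 7.16 and 7.21 CPM in J2, with no overlap. Atp5e lay at 99.7, 108 and 102 CPM in input and 9.34, 9.43 and 9.37 CPM in J2.

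Atp5a1, the alpha subunit of the F1 head, lay at 719, 780 and 833 CPM in the vehicle inputs and 497, 574 and 543 CPM in J2, with a mean ratio over treatments of −0.27 ± 0.09 (edgeR adjusted p = 0.0221), a call lost in 8 of 20 alternatives. Atp5b, its catalytic partner in F1, stood at −0.83 ± 0.13. Ndufv1 stood at −0.61 ± 0.23, a call lost in 9 of 20 alternatives, Sdha at −0.63 ± 0.08, Sdhb at −0.81 ± 0.14, Uqcrc1 at −0.54 ± 0.12, Uqcrfs1 at −0.64 ± 0.12, Cox5a at −1.21 ± 0.09 and Cox6c at −1.62 ± 0.19 (edgeR adjusted p from 4.83e-07 to 0.0326). By role, as values without a test between them, the medians were −0.61 and −1.39 for core and accessory subunits of complex I, −0.87 for complex II, −0.64 and −1.70 for the core and small subunits of complex III, −1.39 for complex IV, and −0.83, −1.11, −0.57 and −1.33 for the F1 head, stalk, c ring and supernumerary subunits of ATP synthase. As a description over the 78 genes, the ratio had a Spearman rho of 0.42 with the length of the gene on the genome and of 0.43 with its mean level; the genes share libraries, and level and length were not separated.

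Among the genes that did not pass were Ndufb2 (0.33), Cox7a2l (0.01 ± 0.12), Ndufs1 (−0.10 ± 0.10) and Atp5s (−0.37), of which Ndufb2 and Atp5s are named after their values were seen. Cox7a2l lay at 109, 105 and 102 CPM in the vehicle inputs and 91.1, 73.0 and 101 CPM in J2. Its relatives Cox7a1 (−2.11 ± 0.31) and Cox7a2 (−1.96 ± 0.21) had lower ratios, as values without a test between them. Cox7a1 rests on few reads, at 0.212, 0.413 and 0.561 CPM in the vehicle J2 libraries. The other isoforms were Cox6a1 (−1.12 ± 0.20), Cox6b1 (−0.83 ± 0.12), Cox7b (−2.16 ± 0.18), Cox8a (−1.28 ± 0.14), Ndufa4 (−2.24 ± 0.19), Ndufa4l2 (−1.14 ± 0.25) and the c subunit genes Atp5g1 (−0.85 ± 0.09), Atp5g2 (−0.29 ± 0.09) and Atp5g3 (−0.57 ± 0.14). Of the 87 genes, 28 overlap another RefSeq gene. Among them are Ndufs1 (with the antisense gene Ino80dos), Ndufa1 (Rnf113a1), Ndufa4l2 (Shmt2), Atp5a1 (Haus1), Atp5j (Gabpa), Cox7c (the small RNA gene Gm22574) and Usmg5 (Taf5). The strand setting of the counting is not given in the sources used here, so reads of such partners cannot be told apart.

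Genes of related function are given by their counts over the mean of the 4 treatments. Of 77 mitochondrial ribosomal protein genes, 65 were lower and 1 higher (median −0.84), with Mrps18c at −1.94 ± 0.13, Mrpl42 at −1.83 ± 0.13 and Mrps30 at 0.48 ± 0.10. Of 85 cytosolic ribosomal protein genes, 65 were lower and 3 higher (median −1.13). Among assembly factors, 9 of 15 for complex I were lower and 1 higher (Ndufaf2 at −1.26 ± 0.22, Acad9 at 0.53 ± 0.10), 6 of 10 lower and 1 higher for complexes II and III (Uqcc2 at −1.62 ± 0.17, Ttc19 at 0.64 ± 0.13), 12 of 20 lower and 2 higher for complex IV (Coa6 at −1.88 ± 0.18, Coa7 at 0.37 ± 0.11), and 1 of 4 in each direction for ATP synthase (Fmc1 at −1.50 ± 0.13, Tmem70 at 0.51 ± 0.15). All 6 subunits outside the symbol rule were lower (median −0.93; Higd2a at −2.15 ± 0.13), as were 9 of 13 genes of the tricarboxylic acid cycle (median −0.73; Suclg1 at −1.23 ± 0.12 and Suclg2 at −0.90 ± 0.09) and 9 of 10 mRNAs of the mitochondrial genome (median −2.55). Of 12 regulators of mitochondrial genes, 6 were higher and 2 lower (median 0.25), with Gabpa, which encodes an ETS factor and overlaps Atp5j, at 1.95 ± 0.39, Pprc1 at 0.56 ± 0.09 and Tfb1m at −0.77 ± 0.17.

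The ratio is given here within each treatment, and its difference between treatments is tested under the third question. In vehicle tumours 72 of 78 genes were lower in J2, 92.3% against 21.1% of all genes, with a median of −1.57, and 1 was higher, 1.28% against 20.2%. For 76 of 78 genes J2 lay below input in all 3 vehicle tumours, 97.4% against 39.2% of all genes. The gene that was higher, Ndufb2 (chr6:39592565-39599843), an accessory subunit of the membrane arm of complex I, lay at 6.80, 8.02 and 10.1 CPM in the vehicle inputs and 14.1, 15.6 and 19.8 CPM in J2. Its ratio was 0.99 ± 0.34 (edgeR adjusted p = 0.0299), a call that was lost without any 1 of the 3 vehicle tumours.

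With ORIN1001, 57 genes were lower in J2 (73.1%, against 14.9% of all genes), with a median of −1.09, and for 73 genes J2 lay below input in all 3 tumours (93.6%, against 34.9%). The count was 32 without ORIN1001 2 and 35 without ORIN1001 3. With docetaxel, 48 were lower (61.5%, against 12.0% of all genes), with a median of −1.15, and for 33 J2 lay below input in all 3 tumours (42.3%, against 21.0%). The count was 16 without docetaxel 1, 12 without docetaxel 2 and 73 without docetaxel 3. With the combination, 29 were lower (37.2%, against 20.5% of all genes), with a median of −0.66, 14 ratios were above 0, and for 46 J2 lay below input in all 3 tumours (59.0%, against 32.3%). The count, of genes lower or higher, was 11 without combination 3 and 44 without docetaxel 3 (41 lower, 3 higher).

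**Figure D4:**
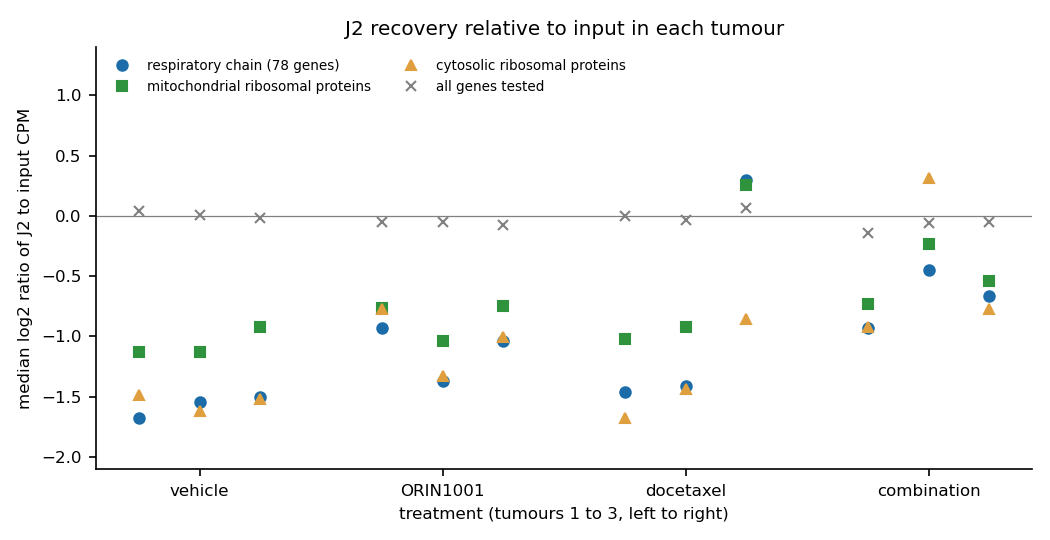
Median log2 ratio of J2 to input in each of 12 tumours, grouped by treatment on the horizontal axis, for the 78 respiratory chain genes, mitochondrial ribosomal proteins, cytosolic ribosomal proteins and all genes tested. The respiratory chain genes lie from −1.68 to −1.50 in vehicle tumours and from −0.93 to −0.45 in combination tumours, with docetaxel 3 at 0.30, while the medians of all genes lie between −0.14 and 0.06.

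By tumour, the median ratio of the 78 genes was −1.68, −1.55 and −1.50 with vehicle, −0.93, −1.37 and −1.04 with ORIN1001, −1.46, −1.41 and 0.30 with docetaxel and −0.93, −0.45 and −0.67 with the combination. Every treated tumour lay above every vehicle tumour, the first 2 docetaxel tumours by little. The number of genes below 0 was 76 or 77 in each vehicle tumour and 73, 52 and 59 in the combination tumours.

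The third question was whether a treatment changed the ratio, tested as the difference from vehicle. With ORIN1001, edgeR called 0 of 78 genes and 0% of all genes (8 of 78 and 605 of all genes at an unadjusted p under 0.05), while DESeq2 called 0 and limma-voom called 47 (45 higher), beside 21.3% of all genes by limma-voom. The median difference was 0.48 (all genes 0.01), 74 of 78 values were above 0, and in 32 genes all 3 ORIN1001 tumours lay above all vehicle tumours (41.0%, against 8.85% of all genes). Of the subunits named throughout, Cox5a stood at 0.63 ± 0.26, Sdhb at 0.61 ± 0.37 and Atp5a1 at 0.52 ± 0.26 (edgeR adjusted p = 1.00). Atp5a1 lay at 896, 627 and 815 CPM in the ORIN1001 J2 libraries, all above the vehicle J2 libraries given before, with inputs at 760, 817 and 761 CPM that overlapped the vehicle inputs. With docetaxel, edgeR called 0 of 78 and 0% of all genes (12 of 78 and 730 of all genes at an unadjusted p under 0.05), and DESeq2 and limma-voom called 0. The median was 0.52, or 0.11 without docetaxel 3, and in 24 genes all docetaxel tumours lay above all vehicle tumours (30.8%, against 8.71%).

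With both drugs, the ratio of the respiratory chain genes rose for subunits of every complex. Against vehicle, 23 of 78 genes rose (29.5%, against 12.7% of all genes) and 1 fell (1.28%, against 17.1%), with a median difference of 0.87 (all genes 0.00). In 53 genes all combination tumours lay above all vehicle tumours (67.9%, against 25.3%), and 72 of 78 ratios lay nearer to 0 with the combination than with vehicle. The genes that rose were 9 of complex I, 1 of complex II, 3 of complex III, 3 of complex IV and 7 of complex V. A higher ratio came with a lower input here. The median J2 level of the 78 genes differed from the vehicle mean by 0.22, −0.28 and 0.23 on the log2 scale, while the input medians differed by −0.42, −1.35 and −0.70.

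Cox5b changed most among them, by 3.41 ± 0.70 on the log2 scale (edgeR adjusted p = 0.00335), and kept its call in all 20 alternatives. It lay at 57.3, 15.3 and 26.6 CPM in the combination inputs and 17.5, 31.6 and 17.1 CPM in the J2 libraries, where vehicle J2 lay at 5.88 to 7.21 CPM. So J2 was higher and input lower than with vehicle, with no overlap in either. Next came Atp5k (2.50 ± 0.80, edgeR adjusted p = 0.0294), Atp5e (2.50 ± 0.53, 0.00386), Uqcr11 (2.50 ± 0.73, 0.0197), Ndufb6 (2.38 ± 0.48, 0.00318) and Ndufv3 (2.13 ± 0.45, 0.00386). Uqcr11, a small subunit of complex III (chr10:80402997-80406821), lay at 10.4, 11.4 and 14.1 CPM in the vehicle J2 libraries and 13.8, 53.0 and 37.7 CPM in those of the combination, with a slight overlap. Atp5k rests on few reads, at 14.7, 1.51 and 2.18 CPM in the combination inputs and 3.19, 0.876 and 1.60 CPM in J2, and its call was lost in 7 of 20 alternatives. The calls of Atp5e, Ndufb6, Ndufv3 and Cox6b1 were lost in 1 of 20, the scaling by library totals.

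Of the isoform groups, Cox6b1 rose by 2.10 ± 0.34 (edgeR adjusted p = 0.00134). Its J2 level was 25.9, 28.8 and 32.0 CPM with vehicle and 56.3, 57.8 and 72.9 CPM with the combination, with inputs at 66.8, 29.7 and 53.9 CPM, so that J2 lay above input in 2 of 3 tumours. Cox6a1 rose by 1.88 ± 0.54, and the c subunit genes Atp5g3, Atp5g1 and Atp5g2 by 1.27 ± 0.39, 0.79 ± 0.25 and 0.74 ± 0.26 (edgeR adjusted p from 0.0184 to 0.0426), with calls lost in 3, 6, 8 and 11 of 20 alternatives. The promoters of Cox6a1, Cox6b1, Sdhb and Uqcr11 are those printed above. Among core subunits Sdhb rose by 1.46 ± 0.38 (edgeR adjusted p = 0.0117). Of the core subunits of complex I, Ndufs7 and Ndufs8 rose by 1.64 ± 0.39 and 1.42 ± 0.30 (edgeR adjusted p = 0.00771 and 0.00402). Subunits that did not pass include Ndufv1, which stood at 1.59 ± 0.62, Cox6c at 1.49 ± 0.55, Atp5b at 0.85 ± 0.35, Ndufs1 at 0.75 ± 0.27, Atp5a1 at 0.57 ± 0.26, Sdha at 0.53 ± 0.24, Uqcrc1 at 0.44 ± 0.33, Cox5a at 0.26 ± 0.27 and Uqcrfs1 at 0.15 ± 0.34 (edgeR adjusted p from 0.0525 to 0.775). The remaining genes that rose were Ndufb7, Atp5j, Uqcrq, Atp5j2, Ndufa13, Uqcrb, Ndufb9, Ndufa10 and Ndufb11, from 1.94 down to 1.01.

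**Figure D5:**
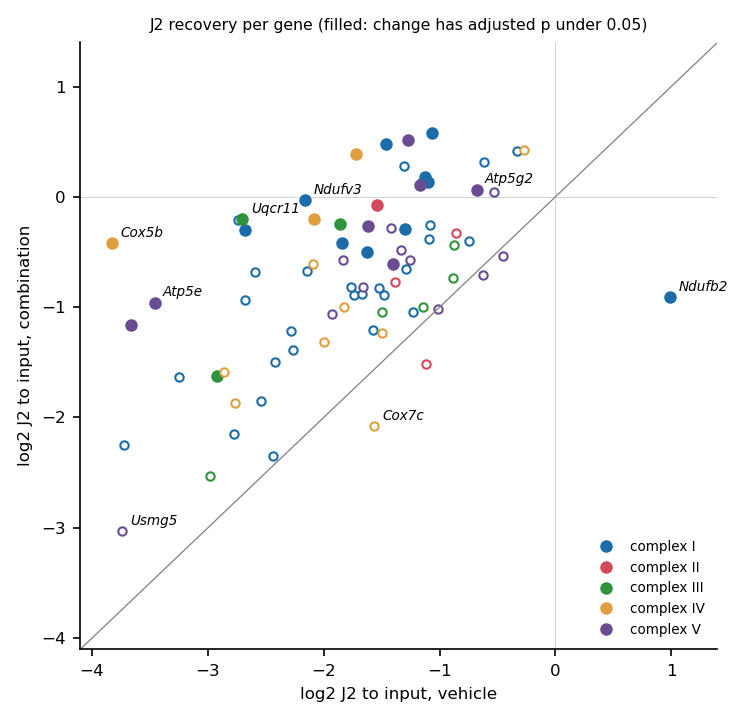
Log2 ratio of J2 to input in vehicle tumours (horizontal axis) and combination tumours (vertical axis) for each of 78 genes, with filled points for the 24 genes whose difference passed an edgeR adjusted p of 0.05 and a line of equal values. Of the 78 points 73 lie above the line; Ndufb2 is the filled point below it.

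Ndufb2 went the other way. Its J2 level was 3.72, 1.31 and 6.70 CPM with the combination against 14.1, 15.6 and 19.8 CPM with vehicle, while the inputs overlapped at 7.42, 9.80 and 6.93 CPM against 6.80, 8.02 and 10.1 CPM. The ratio fell by 1.90 ± 0.55 (edgeR adjusted p = 0.0183), a call lost without vehicle 1, vehicle 3 or combination 2. In the vehicle J2 libraries Ndufb2 was the gene above its input in each tumour, and in the combination J2 libraries it lay below its input in each. In combination 3 the ratio was near 0 (−0.04), and in combination 2 the J2 level of 1.31 CPM rests on few reads.

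Related genes changed as follows in the same comparison. Of 85 cytosolic ribosomal protein genes 31 rose and 0 fell (median 0.97), and of 77 mitochondrial ones 19 rose and 3 fell (median 0.65), with Mrpl21 at 2.49 ± 0.44, Mrpl52 at 1.99 ± 0.40, Mrpl15 at −0.84 ± 0.26 and Mrpl17 at −0.76 ± 0.25. Of the mRNAs of the mitochondrial genome 7 of 10 rose (median 3.70), of the tricarboxylic acid cycle genes 5 of 13 (Mdh2 by 1.43 ± 0.28, Idh3b by 1.45 ± 0.38), and of the subunits outside the symbol rule 2 of 6, the cytochrome c1 gene Cyc1 by 1.54 ± 0.34 and Cox4i1 by 1.61 ± 0.46. Assembly factors went both ways: 2 rose and 2 fell of 15 for complex I, 4 and 2 of 10 for complexes II and III, and 4 and 2 of 20 for complex IV, with Sdhaf4 at 2.21 ± 0.42, Pet100 at 2.03 ± 0.39, Ndufaf3 at 1.75 ± 0.42, Ndufaf4 at −1.30 ± 0.38, Sdhaf3 at −1.48 ± 0.37 and Cox17, a copper chaperone, at −2.42 ± 0.71. Of 12 regulators 2 rose, Esrra by 1.29 ± 0.32 and Polrmt by 0.79 ± 0.25. Beside these values, ribosomal RNA made up 23.0% to 57.7% of the combination J2 libraries. Fibroblast markers summed to 824 to 3196 CPM in them, against 209 to 241 CPM in the vehicle J2 libraries, with none of the 4 markers at 0. Most of that sum was Col1a1 (728, 2911 and 1525 CPM against 175, 158 and 165 CPM), and Col3a1 was also higher. Pdgfra was lower (9.04, 10.1 and 10.8 CPM against 31.6, 41.0 and 14.9 CPM), and Dcn overlapped. The ratio also rose for 4 of 6 epithelial markers. Their part in the change was not tested.

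The count of 24 changed genes was 12 without vehicle 1, 14 without vehicle 2, 11 without combination 2 and 54 without docetaxel 3. The share of all genes called was not set beside these counts, so they show no change particular to the respiratory chain genes. A scaling by library totals left 1 gene higher and 1 lower; it moved the median of all genes to −0.69 and that of the respiratory chain genes to 0.23.

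Against docetaxel the median difference was 0.43, in a comparison that shares the combination tumours with the last. The combination ratio was lower for 2 of 78 genes (2.56%, against 17.6% of all genes). It was higher for 11 (14.1%, against 13.1%), a share near that of all genes. Those that rose most were Ndufb7 (2.12 ± 0.45), Atp5j (2.07 ± 0.37), Ndufs4 (1.82 ± 0.61), Ndufv3 (1.59 ± 0.46), Atp5e (1.48 ± 0.53) and Cox6b1 (1.44 ± 0.35), with edgeR adjusted p from 0.00131 to 0.0467. Ndufs1, which did not pass in the mean over treatments, rose by 0.80 ± 0.28 (edgeR adjusted p = 0.0404). It lay at 90.4, 120 and 181 CPM in the combination J2 libraries and 74.3, 70.1 and 117 CPM in those of docetaxel. The genes that fell were Ndufb2 (−1.67 ± 0.57) and Cox7c (−1.13 ± 0.29, edgeR adjusted p = 0.0094), a small subunit of complex IV. Ndufs4 rests on single libraries, at 196 CPM in docetaxel input 3 and 87.2 CPM in the J2 library of combination 2, and its call was lost without combination 2 or 3. Cox7c lay at 57.0, 59.1 and 16.0 CPM in the docetaxel J2 libraries and 20.7, 10.5 and 14.3 CPM in those of the combination, where docetaxel 3 overlapped the combination. In 7 genes all combination tumours lay above all docetaxel tumours (8.97%, against 16.5% of all genes). The count of 13 was 7, 6 and 42 without docetaxel 1, 2 and 3, 6 without combination 2 and 5 without combination 3.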

How the data were processed

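The data are gene counts of 12 input and 12 J2 libraries from stranded total RNA depleted of ribosomal RNA, per the labels' protocols. The authors deposited raw read counts per gene for each library; the submitters' processing notes name the build mm10 and the tools STAR 2.7.3a, featureCounts 2.0.3 and fastp 0.23.2, without their settings, so the strand setting of the counting is not given in the sources used here. A deposited table of repeat elements was not used. Of 53465 gene rows 53274 matched a symbol.

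Counts were fitted with edgeR 4.0.16 in R 4.3.3 (TMM scaling, filterByExpr with a minimum count of 10 and a minimum total of 15, quasi-likelihood F test), and p-values were adjusted by Benjamini and Hochberg's method over all genes tested and a threshold of 0.05. The 12 inputs were fitted together with 1 coefficient per treatment (17768 genes), and 24 libraries, blocked by tumour, for the ratio of J2 to input and its change (17338 genes), since the series pairs each J2 library with an input. CPM are scaled by TMM over all 24 libraries, while fold changes between inputs use the scaling of the inputs alone. Ratios per tumour add 0.5 to each count. Deviations from the group mean correlated above 0.1 between input and J2 of 11 of 12 tumours (0.0839 to 0.672). Between same-numbered inputs they did so in 3 of 18 pairs (−0.358 to 0.246). The labels do not say that a replicate number is shared across treatments, so the inputs were fitted without such a block. With 3 libraries per group, these values cannot show that no shared batch or day exists. The combination tumours had the lowest values between input and J2 (0.0839, 0.120 and 0.122), against 0.207 to 0.672 in the other tumours. They lay inside the range of same-numbered inputs, so these values do not show the pairing for the combination.

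The genes and gene lists were chosen with earlier results of these data known. Named throughout are main subunits of each complex (1 is not reported here), the isoform groups, up to 6 genes with the largest rise and 6 with the largest fall that passed in a comparison (the 3 smallest p-values where none passed), and up to 2 genes per related list and direction; other names were chosen after their values were seen. Alternatives were DESeq2 1.42.0, limma-voom (limma 3.58.1) with sample weights, other scalings, no count filter and ribosomal RNA rows left out. Further ones were other sample sets, the replicate block for the inputs, no tumour block for J2, and each library left out. Tested on simulated data, the combination against vehicle input fit (17388 genes) recovered 9% of genes changed by 1 on the log2 scale and 91% of those changed by 2, and the mean J2 fit (16777 genes) 93% and 100%. The simulated counts had 1 fixed dispersion, no tumour effect and no library of unlike composition such as docetaxel 3. These shares therefore do not measure the power in these data.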

Additional observations from a re-analysis of the deposited data

Results flagged for a closer look

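These results were singled out because the J2 to input ratio differed between treatments by the edgeR test of the difference itself; the values are log2 differences. Between combination and vehicle tumours 24 of 78 genes differed, 30.8% against 29.9% of all genes, so the number is near the general share; 23 of the 24 were higher, where 12.7% of all genes were higher and 17.1% lower. Among the genes named in the report are Cox5b at 3.41, Atp5k, Atp5e and Uqcr11 at 2.50 each, Ndufb6 at 2.38, Ndufv3 at 2.13, Cox6b1 at 2.10 and Cox6a1 at 1.88. Sdhb stood at 1.46, and the 3 genes of the c subunit, Atp5g3, Atp5g1 and Atp5g2, at 1.27, 0.79 and 0.74. Ndufb2 was the gene that differed in the other direction, at −1.90.

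Between combination and docetaxel tumours 13 of 78 genes differed, 16.7% against 30.7% of all genes, a smaller share than in general. Ndufb7 stood at 2.12, Atp5j at 2.07, Ndufs4 at 1.82, Ndufv3 at 1.59, Atp5e at 1.48, Cox6b1 at 1.44 and Ndufs1 at 0.80. Cox7c stood at −1.13 and Ndufb2 at −1.67. The combination tumours are shared between the 2 comparisons.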

How the results depend on the processing

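The medians of the respiratory chain genes kept their sign under all alternatives for the combination inputs (against vehicle −0.93 to −0.49), for J2 against input (mean −1.39 to −1.05) and for the J2 change with the combination against vehicle (0.23 to 1.00), while the number of genes called moved with the tool and the scaling; the cause was not tested. Genes called in the combination inputs against vehicle, docetaxel and ORIN1001, in this order, were 15, 11 and 25 by DESeq2, 61, 56 and 69 by limma-voom (which called 38.8%, 33.6% and 51.5% of all genes), 0, 0 and 0 with library totals, 20, 0 and 46 with only the 2 groups compared, and 39, 48 and 49 without docetaxel 3 and combination 2, a choice made after seeing the data. Fits with the replicate number as a block called 0, 0 and 3. Counts given here and above without the share of all genes do not show a change particular to the respiratory chain genes.

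For J2 against input, library totals gave 21 with ORIN1001, 2 with docetaxel and 49 with the combination, and docetaxel had 76 by limma-voom, 0 fitted alone and 76 without docetaxel 3, combination 1 and combination 2. For the change in J2, ORIN1001 had 47 by limma-voom and docetaxel 4 without the count filter. The combination against vehicle had 37 by DESeq2, 56 by limma-voom and 2 with library totals. Against docetaxel it had 40 by limma-voom, 4 with library totals and 5 without the tumour as a block. Leaving out those 3 tumours was a choice made after seeing the data. It left combination 3 as the only combination tumour, so no count is given for its change. Leaving out 1 library at a time gave 0 to 53, 0 to 54 and 0 to 61 calls for the 3 input comparisons, 69 to 74 for J2 in the mean, 55 to 75 with vehicle, 32 to 66 with ORIN1001, 12 to 73 with docetaxel and 11 to 44 with the combination, and 11 to 54 and 5 to 42 for the change in J2 against vehicle and docetaxel; ORIN1001 and docetaxel alone stayed at 0 calls in input and change.

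Values that changed sign did so near 0 or with library totals. Ndufs1 in the combination input was 0.0152 by DESeq2, 0.0152 with RLE factors, 0.0567 with library totals and −0.141 to 0.0419 with 1 library left out (above 0 without vehicle 3), and its mean J2 ratio 0.00934 without the 3 tumours. With library totals Atp5j in the docetaxel input was −0.191. The J2 change against vehicle was then −0.179 for Sdha, −0.254 for Uqcrc1, −0.547 for Uqcrfs1, −0.443 for Cox5a and −0.130 for Atp5a1. Uqcrfs1 was −0.121 to 0.326 with 1 library left out (below 0 without combination 1) and −0.00492 without the 3 tumours. Against docetaxel the median was −0.91, Cox6b1 −0.00753 and Ndufs1 −0.665 with library totals, where the median of all genes was −1.38.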
